A study of Mus musculus with 4 samples.

Results

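The miR-106b/93/25 cluster is a set of 3 microRNA (miRNA) precursors that lie together in an intron of Mcm7, a gene for a subunit of the helicase that opens DNA at replication. Its members here are the 6 rows of the deposited count table for both arms of mmu-miR-106b, mmu-miR-93 and mmu-miR-25, out of 1326 miRNA rows. They were chosen by name, with earlier results of these data already known. All 6 had 10 or more counts in at least 2 libraries and so belong to the 584 miRNAs that were tested. Small RNA was sequenced from mouse retina at E18.5, late in gestation, when the retina holds dividing progenitors and new neurons. The 2 libraries labelled Ptf1a+/- came from heterozygotes and the 2 labelled Ptf1a-/- from homozygotes for a loss of Ptf1a, and no wild-type retina was part of the comparison. Ptf1a encodes a transcription factor that retinal progenitors need to form amacrine and horizontal cells. The labels do not give the allele, the strain or how many embryos went into a library. Whether both libraries of a genotype are from different embryos is also unstated, so the spread behind each p-value may be technical.

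A miRNA precursor folds into a hairpin, from which a short duplex is cut. Usually one strand of the duplex, the guide, is loaded into an Argonaute protein and kept, while the other, the passenger, is mostly degraded. The guide finds its targets mainly through the seed, bases 2 to 8 from its 5′ end. miR-106b, miR-93 and miR-25 are transcribed with Mcm7, whose expression accompanies cell division, and are paralogs of the proliferation-linked miR-17/92a cluster. Known targets of the AAAGUGC seed group include the cell cycle inhibitor Cdkn1a, and those of the miR-25 seed group include the pro-apoptotic gene Bcl2l11.

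The mature sequences are shown because 2 of the 6 arms share a seed and the others do not. They are from RefSeq (GRCm38.p6), written 5′ to 3′ with the seed in capitals.
mmu-miR-106b-5p: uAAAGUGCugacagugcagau
mmu-miR-93-5p: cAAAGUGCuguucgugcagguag
mmu-miR-25-3p: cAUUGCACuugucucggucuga
mmu-miR-106b-3p: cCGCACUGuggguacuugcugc
mmu-miR-93-3p: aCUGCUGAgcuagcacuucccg
mmu-miR-25-5p: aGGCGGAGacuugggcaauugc
miR-106b-5p and miR-93-5p carried the same seed and were identical at 16 of the 21 positions compared from the 5′ end. No other tested miRNA with a RefSeq sequence had the seed of miR-106b-3p, miR-93-3p or miR-25-5p (494 of the 584 had one under their name).

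The hairpins are shown because each arm pair below comes from 1 of them. Capitals mark the 5p arm, then the 3p arm, again from RefSeq.
Mir106b: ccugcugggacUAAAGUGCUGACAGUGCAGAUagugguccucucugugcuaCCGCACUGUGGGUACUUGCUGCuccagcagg
Mir93: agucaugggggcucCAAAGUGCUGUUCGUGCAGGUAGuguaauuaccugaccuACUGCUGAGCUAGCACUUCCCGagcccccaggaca
Mir25: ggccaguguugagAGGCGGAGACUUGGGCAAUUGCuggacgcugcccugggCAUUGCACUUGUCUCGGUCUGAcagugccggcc
On chromosome 5 of GRCm38 (minus strand), Mir106b lies at 138165737 to 138165818, Mir93 at 138165523 to 138165610 and Mir25 at 138165321 to 138165404. Together they span 498 bases, with 126 bases between the first and the second and 118 between the second and the third. In the principal Mcm7 transcript of GENCODE M21, which has 15 exons, all 3 lie in intron 13. Mir93 and Mir25 also overlap exon 1 of a retained-intron transcript of the same gene.

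**Figure D1:**
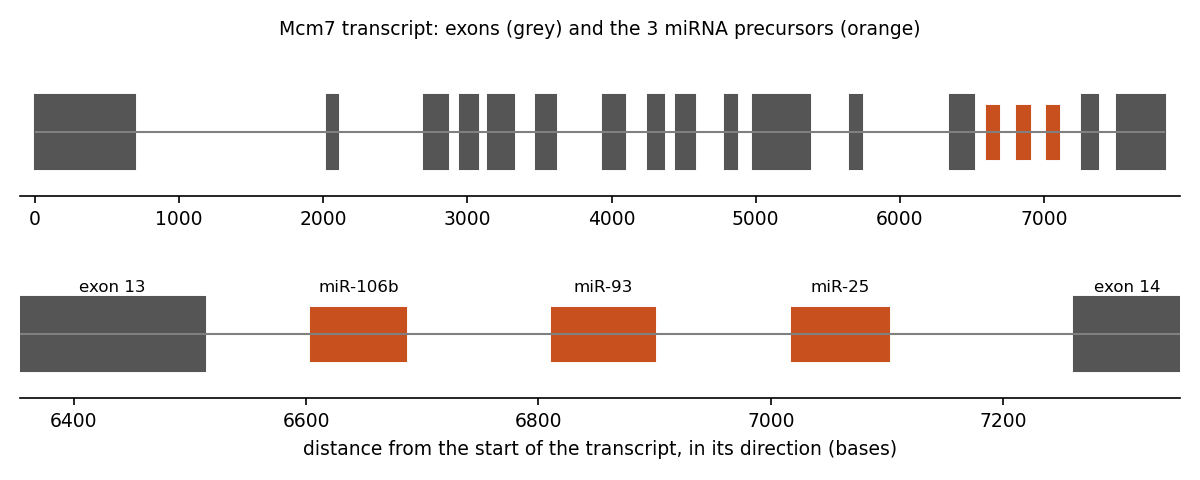
Map of the principal Mcm7 transcript. The x axis is the distance in bases from the transcript start in the direction of transcription, the lower panel enlarges the region of the precursors, grey boxes are exons and orange boxes the 3 miRNA precursors. All 3 precursors sit between exons 13 and 14, in the order miR-106b, miR-93, miR-25.

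The deposited table of most frequent sequences gave 1 form per arm, the same in all 4 libraries. For miR-106b-3p, miR-93-5p and miR-25-3p this form was identical to the RefSeq sequence. The most frequent forms of miR-106b-5p, miR-93-3p and miR-25-5p were longer by 1 base at the 3′ end (A, A and U), and in each case that base is the next base of the hairpin. The most frequent form of each arm was thus the same in both genotypes. The table gives no counts per form, so shifts among less frequent forms were not analysed here.

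The total of listed counts ran from 3647145 to 4385834 over the libraries, and no member had fewer than 125 counts in any library. Levels below are CPM, counts scaled to a common library total and corrected with TMM factors for differences in composition between libraries. Ptf1a-/- replicate 2 stood apart, with a TMM factor of 0.829 against 1.06 to 1.07 in the others. The pair of Ptf1a+/- libraries was close to sampling noise over miRNAs with 20 to 2000 summed counts (chi-square per degree of freedom 1.11, p = 0.0492), and further from it over all with 20 or more (2.17, p = 2.05e-52). For the Ptf1a-/- pair the same ratios were 8.67 and 326. The Ptf1a+/- libraries were kept as 2 replicates. All 5 retinal marker miRNAs were detected, summing to 340200 and 337000 CPM in Ptf1a+/- and 363400 and 517800 CPM in Ptf1a-/- replicates 1 and 2. A further 19 markers stood for blood, vessels, muscle, pigment epithelium, and a joint group for lens or epithelia of the surface. Of the 19, 14 reached the count minimum and 2 passed the test used below as lower in Ptf1a-/-. They were 1 of pigment epithelium and miR-200b-3p of the joint group, so neither points to lens alone. miR-200b-3p had 25 and 31 counts in Ptf1a+/- and 1 and 3 in Ptf1a-/-. In the same group miR-184-3p and miR-203-3p did not pass. The part of other tissue in the values below was not tested.

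The cluster took a small and similar share of each library. Its 6 arms held 1.90% of the listed counts in Ptf1a+/- replicate 1 (exact 95% interval 1.89 to 1.92%), 1.93% in replicate 2 (1.91 to 1.94%), 1.83% in Ptf1a-/- replicate 1 (1.82 to 1.85%) and 1.68% in replicate 2 (1.67 to 1.70%). The intervals cover counting error only, and not differences between libraries. They are too narrow even for counting error where PCR copies of 1 molecule are counted again. Without composition scaling both Ptf1a-/- shares thus lay below both Ptf1a+/- shares. On the TMM scale the order was different: the arms summed to 17916 and 17968 CPM in Ptf1a+/- and to 17294 and 20309 CPM in Ptf1a-/-, so the genotypes overlapped. In retina as a whole, fewer cells of a type and less RNA per cell cannot be told apart.

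No arm of the cluster passed the test between genotypes. Of the 6, 0 were higher and 0 lower with edgeR's quasi-likelihood test at a threshold of 0.05 on the p adjusted by Benjamini-Hochberg over 584 miRNAs, while 6.16% of all 584 were higher and 3.60% lower. DESeq2, which had 7.19% of all 584 higher and 2.91% lower, called none of the 6. Neither did limma on the deposited CPM, which called few miRNAs at all (0% higher and 1.20% lower). At an unadjusted p under 0.05 there were 2 of 6, against 148 of 584. The median log2 fold change (Ptf1a-/- over Ptf1a+/-) was 0.00 for the members, 3 of them above and 3 below 0. It was also 0.00 for all tested miRNAs, a median that TMM scaling places near 0.

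**Figure D2:**
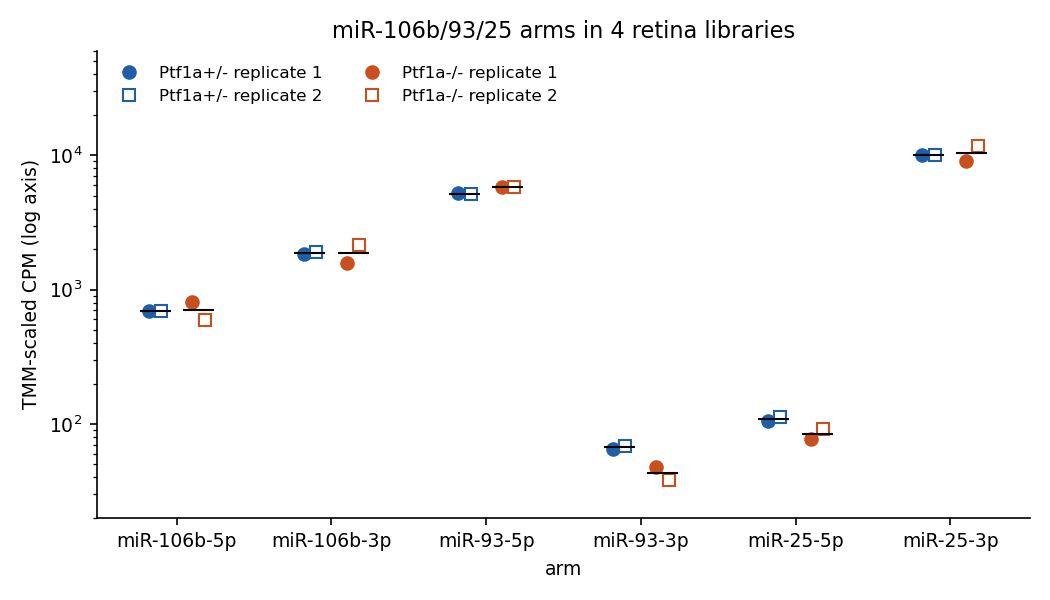
Level of each arm in each library. The y axis is TMM-scaled CPM on a log scale, each point is 1 library (blue Ptf1a+/-, orange Ptf1a-/-, filled replicate 1, open replicate 2) and black bars are means of 2 libraries. The arms run from miR-93-3p, the lowest, to miR-25-3p, the highest, and the genotypes lie apart for miR-93-5p, miR-93-3p and miR-25-5p.

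mmu-miR-25-3p, the guide of its hairpin, was the most abundant arm and ranked 14 of 584 by mean level. It stood at 9994 and 10084 CPM in Ptf1a+/- and at 8998 and 11678 CPM in Ptf1a-/-. The Ptf1a-/- libraries lay on either side of the Ptf1a+/- pair, so the groups overlapped. The fitted log2 fold change was 0.04 ± 0.16 (SE; 95% interval -0.34 to 0.43, adjusted p = 0.903).

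mmu-miR-93-5p, the guide of the second hairpin, ranked 29. It had 5207 and 5119 CPM in Ptf1a+/- and 5794 and 5761 CPM in Ptf1a-/-. It was the only arm of the 6 with both Ptf1a-/- libraries above both Ptf1a+/- libraries, a position that 26.7% of all 584 miRNAs held. The log2 fold change was 0.16 ± 0.11 (95% interval -0.10 to 0.42, adjusted p = 0.407). Its direction depended on the scaling, with -0.01 by library size alone and -0.18 on the deposited CPM, where all tested miRNAs shifted by medians of -0.18 and -0.33. Relative to those medians it stayed above 0.

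Of the 3 hairpins, miR-106b had the most even arms, and the 3p arm was the more abundant. mmu-miR-106b-3p (rank 56) stood at 1850 and 1890 CPM in Ptf1a+/- and at 1569 and 2146 CPM in Ptf1a-/-. Its log2 fold change was -0.01 ± 0.17 (95% interval -0.42 to 0.40, adjusted p = 0.984). mmu-miR-106b-5p (rank 97) had 694.4 and 694.0 CPM in Ptf1a+/- and 809 and 594 CPM in Ptf1a-/-, with a log2 fold change of 0.02 ± 0.16 (95% interval -0.38 to 0.42, adjusted p = 0.966). For both arms the Ptf1a-/- libraries fell on opposite sides of the Ptf1a+/- pair, and in opposite order: replicate 1 was the higher for 5p and the lower for 3p.

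The least abundant arms were miR-25-5p and miR-93-3p, the passengers of their hairpins. mmu-miR-93-3p (rank 248) had 65.3 and 68.5 CPM in Ptf1a+/- and 47.5 and 38.5 CPM in Ptf1a-/-, from 253, 322, 184 and 125 counts. Its log2 fold change of -0.63 ± 0.17 had the largest size of the 6 (95% interval -1.05 to -0.22, adjusted p = 0.0811). mmu-miR-25-5p (rank 204) had 105.6 and 112.7 CPM in Ptf1a+/- and 76.6 and 91.7 CPM in Ptf1a-/-, a log2 fold change of -0.38 ± 0.15 (95% interval -0.74 to -0.02, adjusted p = 0.183). Both arms lay lower in both Ptf1a-/- libraries, as did 31.5% of all 584 miRNAs, and neither passed after adjustment. Their adjusted p ranged from 0.0613 to 0.220 (miR-93-3p) and from 0.131 to 0.472 (miR-25-5p) over 8 alternatives of scaling, test, filter and block that keep all 4 libraries apart. The size of the difference moved more: miR-25-5p stood at -0.57 by library size and at -0.71 and -0.72 on the deposited CPM with pseudocounts of 1 and 0.1. For miR-93-3p these values were -0.81, -0.97 and -0.99. All tested miRNAs shifted down under these scalings, by medians of -0.18, -0.33 and -0.37.

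**Figure D3:**
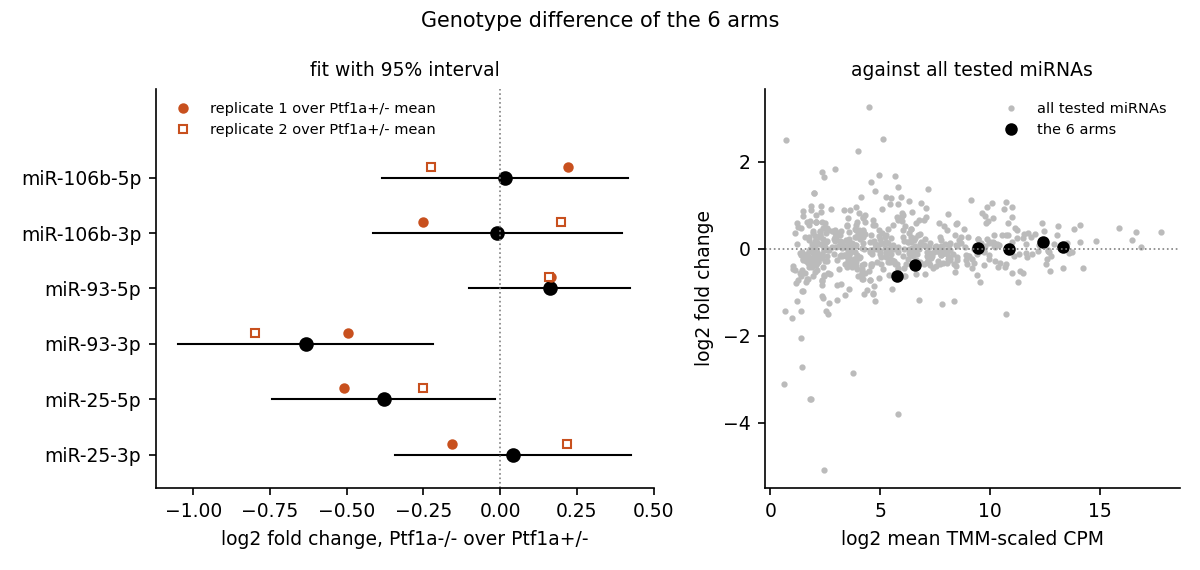
Genotype difference of each arm. Left, the fitted log2 fold change of Ptf1a-/- over Ptf1a+/- (black point) with its 95% interval, and each Ptf1a-/- library over the Ptf1a+/- mean (orange). Right, the log2 fold change against log2 mean TMM-scaled CPM for all 584 tested miRNAs (grey) and the 6 arms (black). The intervals of miR-93-3p (-1.05 to -0.22) and miR-25-5p (-0.74 to -0.02) lie below 0 before adjustment for the number of miRNAs tested.

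The spread within genotypes was unequal, and the sign of 3 of the arms depended on which Ptf1a-/- library was kept. Between the Ptf1a+/- libraries the 6 arms differed by at most 0.09 on the log2 scale (the median size over all 584 was 0.10). Between the Ptf1a-/- libraries, replicate 2 minus replicate 1 was 0.45 for miR-106b-3p, 0.38 for miR-25-3p, 0.26 for miR-25-5p, -0.01 for miR-93-5p, -0.30 for miR-93-3p and -0.45 for miR-106b-5p. The median size over the 581 miRNAs with a count in both was 0.33. When either Ptf1a-/- library was left out, the spread came from the close Ptf1a+/- pair alone and all 6 arms passed, in fits where a large share of all miRNAs did too. With replicate 2 as the lone Ptf1a-/- library, 3 arms were higher and 3 lower, beside 23.7% higher and 21.9% lower of the 579 miRNAs tested. With replicate 1 as the lone Ptf1a-/- library, 2 arms were higher and 4 lower, beside 23.7% higher and 23.7% lower of 577. miR-106b-5p, miR-106b-3p and miR-25-3p had opposite signs in these fits, -0.23 and 0.22, 0.19 and -0.25, and 0.21 and -0.15. miR-93-5p (0.15 and 0.17), miR-93-3p (-0.81 and -0.49) and miR-25-5p (-0.26 and -0.51) kept theirs. In these fits the lone library is assumed to vary as little as the Ptf1a+/- pair.

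The proportions among the arms within a library need no scaling between libraries. miR-25-3p made up 55.8 and 56.1% of the counts of the cluster in Ptf1a+/- and 52.0 and 57.5% in Ptf1a-/-, and miR-93-5p 29.1 and 28.5% against 33.5 and 28.4%. There were 1.92 and 1.97 miR-25-3p counts per miR-93-5p count in Ptf1a+/-, and 1.55 and 2.03 in Ptf1a-/-. For each miR-106b-5p count there were 7.50 and 7.38 of its seed partner miR-93-5p in Ptf1a+/-, and 7.16 and 9.70 in Ptf1a-/-. In each of these the Ptf1a-/- libraries lay on either side of the Ptf1a+/- pair. The ratio of miR-25-3p to miR-106b-3p, the more abundant arms of their hairpins, was 5.40 and 5.34 in Ptf1a+/-. It was 5.73 and 5.44 in Ptf1a-/-, so here both Ptf1a-/- libraries were the higher, by little. The share of miR-93-3p was lower in both Ptf1a-/- libraries (0.36 and 0.38% against 0.27 and 0.19%). So was that of miR-25-5p (0.59 and 0.63% against 0.44 and 0.45%), while the shares of both miR-106b arms overlapped. How often such proportions of other miRNAs lay apart was not counted. Ligation and PCR favour some sequences, so a ratio of different arms is not a ratio of molecules, but it can be compared between libraries.

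The balance of the arms of a hairpin did not overlap between genotypes for miR-93 and miR-25. For miR-93 the 5p arm had 79.5 and 74.6 counts per 3p count in Ptf1a+/- and 122 and 149 in Ptf1a-/-. For miR-25 there were 94.5 and 89.4 counts of 3p per 5p count in Ptf1a+/- and 117 and 127 in Ptf1a-/-. In both hairpins the guide thus outnumbered the passenger by more in each Ptf1a-/- library than in either Ptf1a+/- library. The change in the log2 ratio of the more to the less abundant arm was 0.81 for miR-93 and 0.41 for miR-25. An exact permutation test of 2 libraries against 2 gave a two-sided p of 0.333 for each, the smallest it can give.

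For miR-106b the ratio did overlap. There were 2.66 and 2.72 counts of 3p per 5p count in Ptf1a+/-, and 1.94 and 3.61 in Ptf1a-/-, on either side of the Ptf1a+/- pair (change -0.02, exact permutation p = 1). The hairpin with the most even arms was also the one of the 3 whose arm balance differed most between the Ptf1a-/- libraries.

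The same ratio could be formed for 152 precursors with both arms tested. It was higher in each Ptf1a-/- library than in either Ptf1a+/- library for 27.6% of them and lower for 21.1%, and the median change was 0.05 (quartiles -0.24 and 0.37). miR-93 and miR-25 are thus 2 of the 42 precursors with this pattern. The cluster has too few hairpins for its own share to be compared with that of all 152. A change at least as large as that of miR-93 was seen for 14 of 152 in either direction, 6 of them in the same direction, miR-93 included. For miR-25 these counts were 58 and 35. With limma over the log2 ratios of all 152, a test added after seeing the data, the adjusted p was 0.219 for miR-93 (95% interval 0.21 to 1.40, unadjusted p = 0.0144), 0.479 for miR-25 and 0.968 for miR-106b. Of the 152, 1 passed that test, and 17 had an unadjusted p under 0.05.

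**Figure D4:**
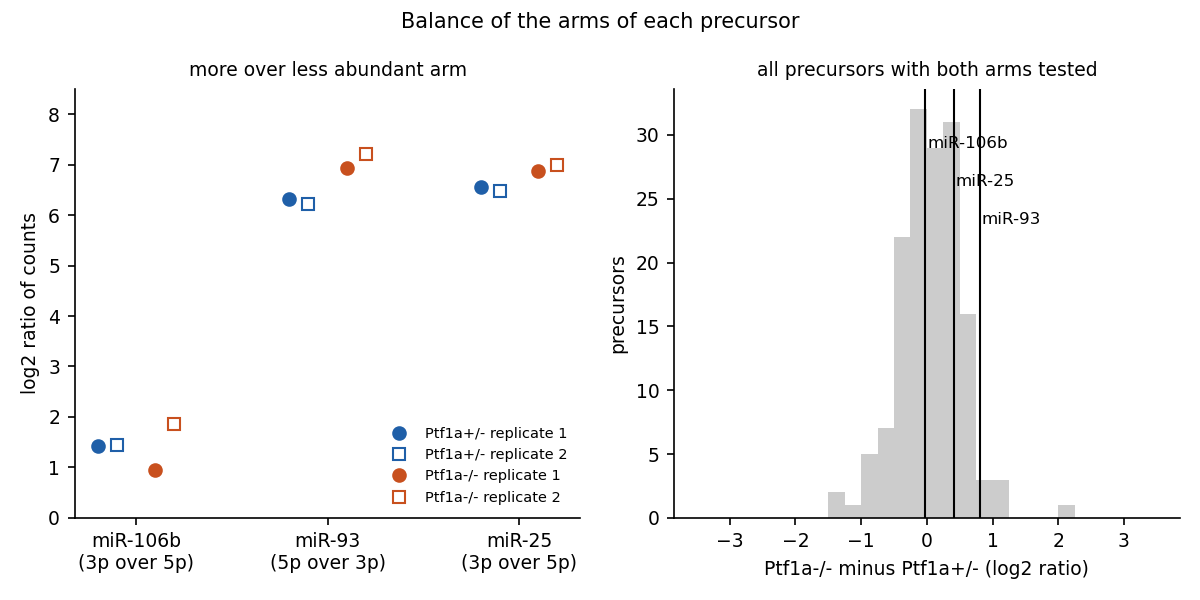
Arm balance. Left, log2 ratio of counts of the more to the less abundant arm of each hairpin in each library (blue Ptf1a+/-, orange Ptf1a-/-, filled replicate 1, open replicate 2). Right, the number of precursors by their change in this ratio (Ptf1a-/- minus Ptf1a+/-), with black lines at miR-106b (-0.02), miR-25 (0.41) and miR-93 (0.81) among all 152.

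The other miRNAs with the AAAGUGC seed of miR-106b-5p and miR-93-5p come from the paralogous miR-17/92a cluster and the cluster of miR-106a and miR-363. Their sequences are shown, seed in capitals, because they differ from miR-93-5p at only 3 or 4 of 23 positions.
miR-17-5p: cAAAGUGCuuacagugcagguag
miR-20a-5p: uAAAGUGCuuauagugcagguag
miR-20b-5p: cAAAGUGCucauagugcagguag
miR-106a-5p: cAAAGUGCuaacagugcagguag
None of these 4 had whole counts in every library, so some reads were divided between rows, while every member of the Mcm7 cluster had whole counts in all 4 libraries. The labels do not say how the counting divided them, and the values of these 4 are uncertain to that extent.

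Within the seed group miR-93-5p was the most abundant and miR-106b-5p the fourth. miR-20a-5p stood at 2044 and 2013 CPM in Ptf1a+/- and at 3130 and 2300 CPM in Ptf1a-/-, above both Ptf1a+/- libraries in both (log2 fold change 0.42 ± 0.16, adjusted p = 0.183). miR-17-5p had 1963 and 1907 CPM in Ptf1a+/- and 2574 and 1759 CPM in Ptf1a-/- (0.16 ± 0.19, adjusted p = 0.652). miR-17-5p and miR-106b-5p showed the same order: Ptf1a-/- replicate 1 highest, the Ptf1a+/- pair between, and Ptf1a-/- replicate 2 lowest. The others of the group did not show it. miR-20b-5p (0.42 ± 0.22, adjusted p = 0.309) and miR-106a-5p (0.05 ± 0.28, adjusted p = 0.946) had under 21 CPM in each library. The 6 miRNAs of the group had log2 fold changes of 0.02 to 0.42 with a median of 0.16, none passed, and 1 had an unadjusted p under 0.05. By library size alone 3 of the 6 were above 0, and on the deposited CPM 2 were.

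miR-25-3p shares its seed AUUGCAC with miR-32-5p, miR-92a-3p, miR-92b-3p and miR-363-3p, whose counts were all whole. miR-92a-3p, the closest in sequence and abundance, is shown beside miR-25-3p, from which it differs at 3 of 21 positions.
miR-25-3p: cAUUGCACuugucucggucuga
miR-92a-3p: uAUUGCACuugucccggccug
miR-92a-3p stood at 12610 and 12490 CPM in Ptf1a+/- and at 10710 and 12660 CPM in Ptf1a-/- (log2 fold change -0.10 ± 0.13, adjusted p = 0.707). In both miR-25-3p and miR-92a-3p, Ptf1a-/- replicate 1 was the lowest library and replicate 2 the highest, for miR-92a-3p by little. miR-92b-3p had the reverse order, with 858 and 847 CPM in Ptf1a+/- and 912 and 723 CPM in Ptf1a-/- replicates 1 and 2. miR-32-5p and miR-363-3p had neither order. How many of all tested miRNAs had either order was not counted. miR-32-5p (-0.18 ± 0.13, adjusted p = 0.444) and miR-92b-3p (-0.06 ± 0.14, adjusted p = 0.826) did not pass, nor did miR-363-3p (0.01 ± 0.15, adjusted p = 0.975). Over the 5 miRNAs of this group the median log2 fold change was -0.06, and 0 had an unadjusted p under 0.05. DESeq2 and limma on the deposited CPM called none of either seed group.

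**Figure D5:**
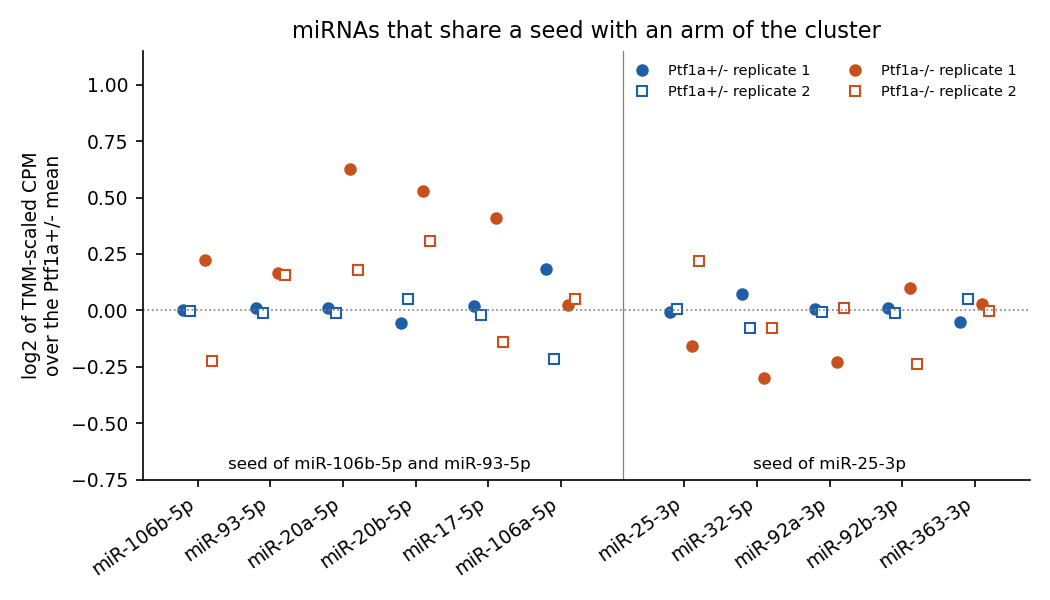
Seed groups by library. The y axis is the log2 of TMM-scaled CPM over the mean of the Ptf1a+/- libraries, each point is 1 library (blue Ptf1a+/-, orange Ptf1a-/-, filled replicate 1, open replicate 2), and the grey line separates the seed of miR-106b-5p and miR-93-5p (left) from that of miR-25-3p (right). miR-106b-5p, miR-17-5p and miR-92b-3p have Ptf1a-/- replicate 1 above and replicate 2 below 0, as does miR-363-3p by little. miR-25-3p has the reverse, as does miR-92a-3p, whose replicate 2 is barely above 0.

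As clusters, the paralogs gave no call either. Of 12 arms of the miR-17/92a cluster 11 were tested, 0 were higher and 0 lower (edgeR; 2 had an unadjusted p under 0.05, and DESeq2 and limma on the deposited CPM called 0), with a median log2 fold change of -0.01. The 3 smallest p-values were those of miR-18a-3p (-0.61 ± 0.16, adjusted p = 0.0779), miR-20a-5p, given above, and miR-19b-1-5p (-0.69 ± 0.41, adjusted p = 0.372, 50 counts in all). miR-18a-3p had 49.1 and 52.5 CPM in Ptf1a+/- and 33.3 and 33.2 CPM in Ptf1a-/-, a size of difference like that of miR-93-3p. Of 12 named arms of the cluster of miR-106a and miR-363, 5 were tested and none passed (0 at an unadjusted p under 0.05, and 0 by DESeq2 or limma), with a median of 0.05. Its smallest p-values were those of miR-20b-5p, miR-92a-3p and miR-19b-3p (0.05 ± 0.15, adjusted p = 0.869), the last 2 of which belong to both clusters.

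The miRNAs whose levels over the 4 libraries were most like the cluster were found by root mean square distance between centred log2 CPM profiles. Against the mean profile of miR-106b-5p, miR-93-5p and miR-25-3p, the closest of 196 miRNAs with a mean of 100 CPM or more were miR-30c-5p (distance 0.014), miR-872-5p (0.026) and miR-325-5p (0.032). miR-93-5p itself lay 0.050 from that mean, while miR-25-3p (0.14) and miR-106b-5p (0.15), whose Ptf1a-/- libraries diverge in opposite directions, lay further off. Against the mean profile of miR-106b-3p, miR-93-3p and miR-25-5p, the closest of 410 with 10 CPM or more were miR-330-5p (0.016), miR-467b-5p (0.036) and miR-187-3p (0.036). miR-25-5p lay 0.047 from that mean, and miR-106b-3p (0.20) and miR-93-3p (0.21) further. Every arm lay further from its own mean profile than the 3 miRNAs named for that profile. That comparison is uneven, because those 3 were picked as the closest of each pool and the arms were not picked by distance. It does not show how the arms compare with miRNAs in general, since distances over the whole pools were not summarised.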

How the data were processed

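The authors' deposited table gave estimated counts per mature miRNA, with parts of reads in 5.73 to 7.84% of values per library; all values were rounded to whole numbers before testing (whole counts had been assumed when the tests were designed). A second deposited table gave CPM, whose total exceeded the listed counts in every library. The excess was 17.05 and 16.3% of that total in Ptf1a+/- replicates 1 and 2. In Ptf1a-/- it was larger, at 22.68 and 27.87%, so the total behind the deposited CPM differed between genotypes. The third held most frequent sequences, against miRBase22 per the file headers. The submitters' processing notes name bcl2fastq 2.20.0.422; no aligner, counter or build is given in the sources used here. Per the labels' protocols, RNA of 18 to 30 nt and cDNA of 60 to 80 nt were cut from gels.

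Genotypes were compared with edgeR 4.0.16 (R 4.3.3; quasi-likelihood F test, TMM, genotype only, at least 10 counts in 2 libraries, Benjamini-Hochberg, threshold 0.05). The fit was tested on simulated data with equal spread in both genotypes, so that test does not cover the unequal spread seen here. Arm ratios used a pseudocount of 0.5. Alternatives used DESeq2 1.42.0 and limma 3.58.1 (log2 of deposited CPM plus 1 or 0.1). Positions are from GENCODE M21 and sequences from RefSeq, both GRCm38. Named miRNAs are the 6 arms; from each paralog cluster and seed group, called miRNAs and the 3 smallest p-values; and the 3 closest profiles to each of 2 mean profiles. Further seed group members were named after their values were seen. The members and lists were chosen with earlier results of these data known.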

Additional observations from a re-analysis of the deposited data

How the results depend on the processing

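No arm passed in any of the 9 alternatives that leave no library out, summing the Ptf1a+/- pair into 1 included; leaving 1 library out gave 0 to 3 arms higher and 0 to 4 lower, all from the fits with a single Ptf1a-/- library. Over all miRNAs the 36 higher and 21 lower became 4 and 12 by library size, 0 and 7 with limma on the deposited CPM (pseudocount 1; 0 and 5 with 0.1), 12 and 9 with no filter on low counts, 0 and 1 with the Ptf1a+/- libraries summed, and 0 to 137 and 0 to 137 leaving 1 library out. With the replicate number as a block they were 5 and 7, and no arm passed; same-numbered libraries deviated from their genotype means with a correlation of only 0.05 over 584 miRNAs, so the numbers were not taken as pairs.

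Values near 0 changed sign. miR-106b-5p went to -0.14 by library size, -0.35 on the deposited CPM with either pseudocount, -0.0012 with the replicate block, -0.010 with the Ptf1a+/- libraries summed and -0.23 to 0.22 leaving 1 library out. miR-106b-3p went to 0.0045 with DESeq2 size factors, 0.0047 with DESeq2, and -0.25 to 0.19 leaving 1 out. miR-93-5p went to -0.014 by library size and -0.18 on the deposited CPM with either pseudocount. miR-25-3p went to -0.16 by library size, -0.31 on the deposited CPM with either pseudocount, and -0.15 to 0.21 leaving 1 out. All tested miRNAs shifted by medians of -0.18 by library size, and of -0.33 and -0.37 on the deposited CPM with pseudocounts of 1 and 0.1. The cause of the sign changes was not tested. miR-93-3p and miR-25-5p stayed below 0 in all 13 alternatives. The arm balance of miR-93 and miR-25 kept its direction under every alternative run, but these alternatives could hardly have reversed it. Scaling cancels within a library, and leaving 1 library out cannot reverse groups that do not overlap. The log2 5p over 3p difference of miR-106b ranged from -0.42 to 0.47 leaving 1 library out. With 2 libraries a genotype, the intervals of miR-106b-5p, miR-106b-3p and miR-25-3p include differences of about 0.4 either way on the log2 scale.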
